A study of Mus musculus with 6 samples.

Results

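Aminoacyl-tRNA synthetases are the enzymes that join each amino acid to its tRNA, and they were followed here in RM-1 cells, a mouse prostate cancer line known to have been transformed with Ras and Myc oncogenes. The genes were taken as the protein-coding entries of the deposited table with "tRNA synthetase" in their description, which gave 42 of 55487 genes. A 43rd match, Kars-ps1, is a processed pseudogene with a total count of 0 and was left out. Of the 42 genes, 21 encode cytosolic enzymes or their subunits, 17 encode mitochondrial enzymes and 4 encode accessory proteins that charge no tRNA. Gars and Kars, each of which makes a cytosolic and a mitochondrial form, were counted with the cytosolic genes only. The wording of the selection splits cytosolic from mitochondrial by a description or a symbol ending in 2, which would place Tarsl2 and Aimp2 with the mitochondrial genes. Both products are known as cytosolic, so textbook location was used instead.

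The study compared RM-1 cells given a lentivirus that overexpresses Bhlhe22 with RM-1 cells given an empty lentiviral vector, with 3 RNA-seq libraries in each group and no other treatment in the labels. The vector cells carry a lentivirus as well, so viral transduction is shared by both groups. Nothing in the labels tells if each replicate was a culture of its own or if the cells were 1 clone. The p-values therefore measure only the spread between these libraries, which may be technical. Libraries held from 15464709 to 25129552 counts. Bhlhe22, a basic helix-loop-helix transcription factor, was not counted at all in the 3 vector libraries (0 counts each) and had 8706, 14785 and 17995 counts in the Bhlhe22 libraries. Of the markers of prostate luminal cells, Krt8 and Krt18 were expressed, while Hoxb13 had 0 counts in every library. The 4 leukocyte markers summed to between 37.8 and 42.6 CPM (counts scaled to library size) in vector and between 43.6 and 52.0 CPM in Bhlhe22 libraries. Nearly all of it was Cd68, while Cd3e and Adgre1 had 0 counts in every library. The remaining marker, Ptprc, had 0, 2 and 0 counts in vector and 3, 0 and 0 counts in Bhlhe22 libraries. The part of leukocytes in the results below was not tested.

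In mammals most amino acids are charged by a cytosolic enzyme and, from a second nuclear gene, by a mitochondrial enzyme that serves the mitochondrial ribosome. The enzymes fall into classes I and II by the fold of their catalytic core, and some of the cytosolic ones are held together with scaffold proteins in the multisynthetase complex. When uncharged tRNA or other stress activates an eIF2alpha kinase, the factor ATF4 is translated and, with C/EBP partners, induces genes of amino acid supply, among which cytosolic synthetases are well known. Sites bound by ATF4 and C/EBP factors often hold a composite element that reads TGATGNAA on 1 strand and TTNCATCA on the other.

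That element was looked for on both strands of the RefSeq promoters (build GRCm38.p6, 250 bases before to 50 bases after the start site). A promoter was found for 32 of the 42 genes and those without one include Cars, Hars, Hars2, Lars, Nars, Pars2, Rars, Vars and Wars. The element was present in 5 of 14 cytosolic promoters, in 0 of 14 mitochondrial and in 0 of 4 accessory promoters, against 4.51% of the 27025 genes of the promoter table. The 5 genes were Aars, Gars, Iars, Tars and Yars. They are among the 14 cytosolic genes that were higher in Bhlhe22 cells (below), 8 of which have a promoter here. None of the 6 promoters of the other cytosolic genes held the element. The higher genes Cars, Hars, Lars, Nars, Rars and Wars have no promoter here and could not be searched. Whether the element goes with the rise was not tested. The element was also present in 4 of 15 promoters of a list of stress genes and in 4 of 15 of a list of amino acid supply genes (26.7% each), so it was not particular to the synthetases. A site of each synthetase gene with a match is shown. The selection of the genes did not use the element. The element was set together with these lists, with a rise of stress genes in these data already known. Its share is therefore not independent evidence of a link to the rise. Each line runs 5′ to 3′ on the strand of the gene, the 8 letters of the element are in capitals, and Asns, a classical ATF4 target, is given for comparison.
Aars, chr8:111033840-111033869, plus strand: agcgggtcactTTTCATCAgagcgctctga
Gars, chr6:55037960-55037989, plus strand: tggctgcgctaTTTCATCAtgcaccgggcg
Iars, chr13:49682126-49682155, plus strand: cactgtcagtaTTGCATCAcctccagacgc
Tars, chr15:11399655-11399684, minus strand: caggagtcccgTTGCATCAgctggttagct
Yars, chr4:129189895-129189924, plus strand: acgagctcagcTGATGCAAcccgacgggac
Asns, chr6:7693214-7693243, minus strand: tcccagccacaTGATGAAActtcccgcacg

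Counted from the RefSeq start site, the first base of the element shown was at 10 in Aars, at -30 in Gars, at 8 in Iars, at -15 in Tars, at 4 in Yars and at -23 in Asns. In Aars, Gars, Iars and Tars it lay on the strand opposite to the gene and in Yars on the same strand. Aars held another match, not shown, with its first base at -112 and also on the opposite strand. A match is a description of letters and no measurement of binding, which was not assayed.

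Most cytosolic synthetase mRNAs rose in Bhlhe22 cells. Of the 21 cytosolic genes, 14 were higher, 1 was lower and 6 did not pass the test (edgeR quasi-likelihood test, Benjamini-Hochberg adjusted p below 0.05 over 14663 genes), where 10.4% of all tested genes were higher and 9.28% lower. The median log2 fold change of the 21 genes was 0.50, a 1.42-fold increase, against 0.01 for all tested genes. All 42 genes passed the filter on low counts, so no member was lost to it. Over the 42 genes, 17 were higher and 3 lower. The Bhlhe22 libraries lay wholly above the vector libraries in 15 cytosolic genes and wholly below in 3, against 20.8% and 20.0% of all tested genes. In 11 of the 14 higher genes Bhlhe22 replicate 1 was the highest library. Without it, 15 cytosolic genes were higher and 3 lower, and 8 of the 42 were lower.

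**Figure D1:**
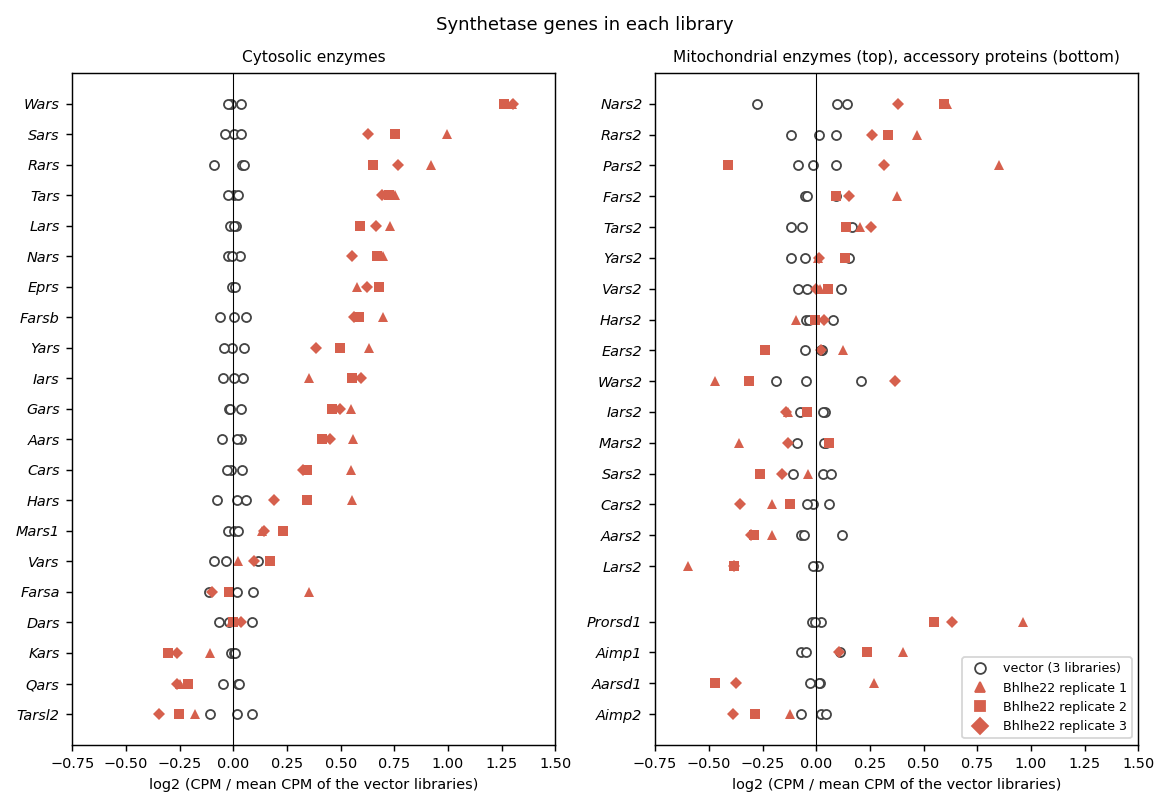
Each point is 1 library, shown for 41 of the genes and placed by the log2 ratio of its CPM to the mean CPM of the 3 vector libraries for that gene (open circles, vector; filled symbols, Bhlhe22 replicates 1 to 3). The Bhlhe22 libraries stand clear of the vector libraries from Wars down to Mars1 among the cytosolic enzymes, while most mitochondrial enzymes overlap.

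The largest change was in Wars, which charges tryptophan and is also known as an interferon-inducible gene (ENSMUSG00000021266, chr12:108860030-108894174 on GRCm38, minus strand). It had 111, 111 and 115 CPM in vector replicates 1, 2 and 3 and 276, 269 and 278 CPM in Bhlhe22 replicates 1, 2 and 3. The libraries of each group lay close together and far from the other group (2.44-fold, log2 fold change 1.29 with SE 0.06, edgeR adjusted p = 6.06e-05). Sars, the serine enzyme (ENSMUSG00000068739, chr3:108424865-108445209, minus strand), had 593, 576 and 608 CPM in vector and 1183, 997 and 915 CPM in Bhlhe22 libraries. All 3 Bhlhe22 values were above all vector values, with replicate 1 the highest (0.80, SE 0.10, edgeR adjusted p = 0.00243). Rars, the arginine enzyme and a member of the multisynthetase complex (ENSMUSG00000018848, chr11:35808381-35834506, minus strand), had 808, 814 and 738 CPM in vector and 1488, 1234 and 1338 CPM in Bhlhe22 libraries. The groups were again apart (0.78, SE 0.09, edgeR adjusted p = 0.00155).

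Tars, which charges threonine and carries the element shown above, had 389, 394 and 382 CPM in vector and 656, 643 and 628 CPM in Bhlhe22 libraries. It was among the tightest of the changes (log2 fold change 0.73 with SE 0.06, edgeR adjusted p = 4.86e-04). Tarsl2, a second cytosolic threonine enzyme from a gene of its own, was expressed at a low level, with 24.0, 25.2 and 21.99 CPM in vector and 20.96, 19.9 and 18.7 CPM in Bhlhe22 libraries. Its groups did not overlap but it did not pass the test (-0.26, edgeR adjusted p = 0.101). Without Bhlhe22 replicate 1 it was called lower (-0.31, edgeR adjusted p = 0.0412).

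Lars, the leucine enzyme, is known in addition as a leucine sensor upstream of mTORC1. It had 336, 342 and 341 CPM in vector and 564, 511 and 538 CPM in Bhlhe22 libraries (log2 fold change 0.66, edgeR adjusted p = 9.19e-04). Eprs, a fused enzyme that charges glutamate and proline, had 612, 611 and 617 CPM in vector and 914, 980 and 944 CPM in Bhlhe22 libraries (0.63, edgeR adjusted p = 9.47e-04). The libraries of each group were close together for both genes, and the groups did not overlap. Nars, the asparagine enzyme, had 670, 696 and 679 CPM in vector and 1105, 1084 and 999.9 CPM in Bhlhe22 libraries (0.64, edgeR adjusted p = 0.00118), again without overlap.

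The phenylalanine enzyme is built from an alpha and a beta subunit, and their mRNAs differed. Farsb, the beta subunit, shares 9.47% of its exon length with Sgpp2 on the opposite strand and had 125, 130 and 120 CPM in vector and 202, 188 and 185 CPM in Bhlhe22 libraries and was higher (0.62 on the log2 scale, SE 0.07, edgeR adjusted p = 0.00159). Farsa, the alpha subunit, had 51.1, 46.8 and 53.8 CPM in vector and 64.7, 49.9 and 47.2 CPM in Bhlhe22 libraries. Its groups overlapped and it did not pass the test (0.09, SE 0.13, edgeR adjusted p = 0.684). Whether the subunits differed in their response was not tested.

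Gars, the glycine enzyme, makes the cytosolic and the mitochondrial form from 1 gene, and so does the lysine enzyme Kars. Gars had 714, 742 and 718 CPM in vector and 1059, 997 and 1023 CPM in Bhlhe22 libraries and was higher, with the groups well apart (0.50 on the log2 scale, SE 0.06, edgeR adjusted p = 0.00229). Kars had 532, 537 and 540 CPM in vector and 497, 435 and 447 CPM in Bhlhe22 libraries, with all Bhlhe22 values below the vector values. Kars was the gene nearest to the threshold on the outer side (-0.22, SE 0.07, edgeR adjusted p = 0.0755), was lower by DESeq2 (adjusted p = 0.0404) and was lower without Bhlhe22 replicate 1 (-0.29, edgeR adjusted p = 0.00123).

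Iars, Yars and Aars, the enzymes of isoleucine, tyrosine and alanine, were also higher. Iars had 335, 345 and 324 CPM in vector and 428, 491 and 506 CPM in Bhlhe22 libraries (log2 fold change 0.50, edgeR adjusted p = 0.00655). Yars had 218, 213 and 227 CPM in vector and 339, 310 and 286 CPM in Bhlhe22 libraries (0.51, edgeR adjusted p = 0.00588). Aars had 841, 791 and 830 CPM in vector and 1206, 1091 and 1119.8 CPM in Bhlhe22 libraries (0.47, edgeR adjusted p = 0.00439). In none of the 3 genes did the groups overlap. In Aars, 14.3% of the exon length is shared with Exosc6 on the same strand, so some of its reads could belong there.

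The remaining 2 increases among cytosolic enzymes were less firm. Cars, the cysteine enzyme, went from 257 ± 6.45 to 341 ± 29.9 CPM (SD, n = 3 libraries; log2 fold change 0.41, edgeR adjusted p = 0.0138) and missed the threshold without vector replicate 1, 2 or 3 (edgeR adjusted p = 0.0678, 0.0689 and 0.0531). Hars, the histidine enzyme, had 119, 112 and 123 CPM in vector and 173, 149 and 134 CPM in Bhlhe22 libraries and lay just inside the threshold (0.37, SE 0.10, edgeR adjusted p = 0.0442). Its groups were apart by little, its exons overlap those of Hars2 on the other strand (7.97% of exon length), and its call was lost without vector replicate 1, 2 or 3 or Bhlhe22 replicate 2 (edgeR adjusted p = 0.128, 0.152, 0.105 and 0.102). With the replicate number as a block its edgeR adjusted p was 0.0683, and with upper quartile scaling it was 0.0546. On log2(FPKM + 1) and log2(FPKM + 0.1) the limma adjusted p for Hars was 0.0592 and 0.0579.

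Qars, the glutamine enzyme of the multisynthetase complex, was the only cytosolic gene called lower with all libraries. It had 115, 109 and 115 CPM in vector and 95.2, 97.7 and 94.4 CPM in Bhlhe22 libraries, a small and even difference (-0.24 on the log2 scale, SE 0.06, edgeR adjusted p = 0.0350). It stayed below the threshold when Bhlhe22 replicate 1 was left out, and lost the call otherwise, with edgeR adjusted p of 0.141, 0.0903 and 0.130 without vector replicates 1, 2 and 3 and of 0.0959 and 0.0938 without Bhlhe22 replicates 2 and 3. Dropping the filter gave an adjusted p of 0.0899 for Qars, and the replicate block 0.105.

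Mars1, Vars and Dars, the enzymes of methionine, valine and aspartate, did not pass the test. Mars1 had 238, 242 and 245 CPM in vector and 265, 284 and 267 CPM in Bhlhe22 libraries, groups that did not overlap (log2 fold change 0.17 with SE 0.06, edgeR adjusted p = 0.105), and it was called without Bhlhe22 replicate 1 (0.18, edgeR adjusted p = 0.0201). Its exons meet those of the stress gene Ddit3 on the other strand over 1.99% of their length. Dars had 184, 198 and 178 CPM in vector and 185, 186 and 191 CPM in Bhlhe22 libraries, the latter within the vector range (0.01, SE 0.07). Vars was at 554 ± 41.4 CPM in vector and 593 ± 31.5 CPM in Bhlhe22 libraries (SD, n = 3; 0.10, SE 0.08).

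The increases included enzymes inside and outside the multisynthetase complex. Of the 8 complex enzymes, Rars, Lars, Eprs and Iars were higher, Qars was lower and Mars1, Dars and Kars did not pass the test. Their median was 0.34 on the log2 scale. Of the 13 other cytosolic genes, 10 were higher and 0 lower, with a median of 0.50. By catalytic class, 6 of 9 class I and 7 of 11 class II cytosolic genes were higher, with medians of 0.50 and 0.47. These are counts of small groups and the differences between them were not tested.

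Few mitochondrial synthetase mRNAs changed. Of the 17 genes, 2 were higher, 2 were lower and 13 did not pass the test, near the shares of all tested genes given above, and the median log2 fold change was -0.02. Without Bhlhe22 replicate 1, 2 were higher and 3 lower. The cytosolic mRNAs summed to between 7791 and 7840 CPM in vector and between 10875 and 11658 CPM in Bhlhe22 libraries. The mitochondrial mRNAs summed to between 485 and 502 CPM in vector and between 483 and 490 CPM in Bhlhe22 libraries. The ratio of the sums was 15.8 ± 0.224 in vector and 22.9 ± 0.780 in Bhlhe22 libraries (SD, n = 3). In RNA from whole cultures, more RNA per cell and more cells of a kind cannot be told apart.

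The higher mitochondrial genes were Nars2 and Rars2, whose cytosolic counterparts also rose. Nars2 had 16.3, 12.2 and 15.9 CPM in vector and 22.6, 22.4 and 19.3 CPM in Bhlhe22 libraries (log2 fold change 0.53 with SE 0.14, edgeR adjusted p = 0.0349). Rars2 had 27.3, 24.96 and 28.8 CPM in vector and 37.5, 34.0 and 32.3 CPM in Bhlhe22 libraries (0.36, SE 0.10, edgeR adjusted p = 0.0418). Both groups of libraries were apart in these genes, yet the calls depended on single libraries. Nars2 lost its call without vector replicate 1, 2 or 3 or Bhlhe22 replicate 2 (edgeR adjusted p = 0.0701, 0.0932, 0.0826 and 0.105), and Rars2 without any library except Bhlhe22 replicate 1 (edgeR adjusted p from 0.0518 to 0.148). With the replicate block the adjusted p was 0.0610 for Nars2 and 0.0852 for Rars2.

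Lars2, the mitochondrial leucine enzyme (ENSMUSG00000035202, chr9:123366927-123462666, plus strand), was among the genes that were lower. It had 25.8, 25.8 and 25.4 CPM in vector and 17.0, 19.7 and 19.7 CPM in Bhlhe22 libraries (log2 fold change -0.45 with SE 0.09, edgeR adjusted p = 0.0161). It was lower in every Bhlhe22 library than in any vector library, but missed the threshold without vector replicate 1, 2 or 3 (edgeR adjusted p = 0.0720, 0.0678 and 0.0625).

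Set side by side for the same amino acid, 17 of 19 pairs of a cytosolic and a mitochondrial gene had the larger log2 fold change in the cytosolic one. The pairs cover 17 amino acids and are not all separate, since Eprs, Fars2 and Tars2 each enter 2 of them. In 11 pairs the cytosolic gene was higher and the mitochondrial one did not pass the test, in 2 both were higher (Nars with Nars2, Rars with Rars2) and in 1 they went opposite ways (Lars 0.66, Lars2 -0.45). The widest gap was between Wars and Wars2, the mitochondrial tryptophan enzyme, which had 9.92, 13.0 and 10.9 CPM in vector and 8.15, 9.09 and 14.5 CPM in Bhlhe22 libraries (log2 fold change -0.08, SE 0.23). The Bhlhe22 libraries of Wars2 enclosed the vector range, so its SE was wide. Sars2, the serine enzyme of mitochondria, had 15.2, 13.8 and 15.6 CPM in vector and 14.5, 12.4 and 13.3 CPM in Bhlhe22 libraries (-0.15, SE 0.11), set against 0.80 for Sars. The pairs in which the mitochondrial gene had the larger value were Farsa with Fars2 and Tarsl2 with Tars2. A gap between genes was not tested in any pair, and the cytosolic genes had far more counts.

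**Figure D2:**
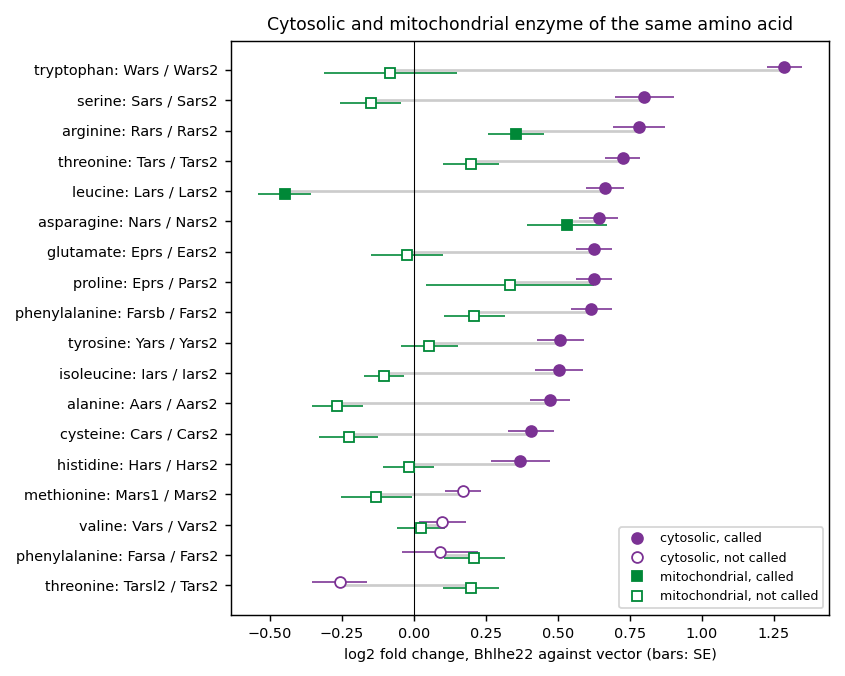
Log2 fold changes of Bhlhe22 against vector with SE bars for the cytosolic (circles) and mitochondrial (squares) gene of each amino acid; filled symbols passed the test. The circles lie to the right of the squares in 16 of the 18 pairs drawn.

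The mitochondrial counterparts below did not pass the test. Fars2, for phenylalanine, had 20.6, 22.8 and 20.8 CPM in vector and 27.7, 22.8 and 23.8 CPM in Bhlhe22 libraries (log2 fold change 0.21, SE 0.11), and Tars2, for threonine, 49.9, 58.6 and 48.1 against 60.1, 57.4 and 62.3 CPM (0.20, SE 0.10). Iars2, for isoleucine, had 116, 126 and 125 CPM in vector and 112, 119 and 111 CPM in Bhlhe22 libraries (-0.10, SE 0.07), and it shares 24.2% of its exon length with genes of the opposite strand. Ears2, which charges glutamate in mitochondria, had 9.64, 9.13 and 9.59 against 10.3, 8.01 and 9.60 CPM (-0.02, SE 0.13). Pars2, for proline, had the lowest CPM, with 5.71, 5.05 and 5.29 CPM in vector and 9.66, 4.03 and 6.65 CPM in Bhlhe22 libraries, so that its Bhlhe22 libraries lay on both sides of the vector libraries (0.33, SE 0.29). Aars2, the alanine enzyme of mitochondria, had 28.2, 28.5 and 32.2 against 25.7, 24.2 and 24.0 CPM, groups that did not overlap (-0.27, edgeR adjusted p = 0.0792), and it was called lower without Bhlhe22 replicate 1 (-0.30, edgeR adjusted p = 0.0364). Yars2, for tyrosine, had 27.9, 23.2 and 24.3 CPM in vector and 25.3, 27.6 and 25.4 CPM in Bhlhe22 libraries, which overlapped (0.05, SE 0.10). Hars2, for histidine, had a log2 fold change of -0.02 (SE 0.09) and Cars2, for cysteine, of -0.23 (SE 0.10, edgeR adjusted p = 0.171). Mars2 and Vars2, for methionine and valine, had -0.13 (SE 0.12) and 0.02 (SE 0.08).

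Most cytosolic genes had levels above those of all mitochondrial genes. On the deposited FPKM scale (counts scaled to gene length and library size), the cytosolic genes had a median of 54.7 over all 6 libraries and ran from 3.09 (Tarsl2) to 269 (Rars), while the mitochondrial genes had a median of 2.68 and ran from 0.948 (Pars2) to 10.4 (Iars2). By this scale 18 cytosolic genes were above the highest mitochondrial one, and Farsa, Qars and Tarsl2 were not. The length behind each FPKM value is the sum of all distinct exons of a gene, counting overlapping exons repeatedly, as was found for 41 of the 42 genes within 0.1%, and this lowers the FPKM of genes with many annotated transcripts. For Qars the length used was 16786 bases, while its longest protein-coding transcript in GENCODE M21 has 2800 bases. In CPM per kilobase of that transcript, 20 of the 21 cytosolic genes exceeded the highest mitochondrial one (21.5, Iars2), with Qars at 37.3 and Farsa at 28.6.

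**Figure D3:**
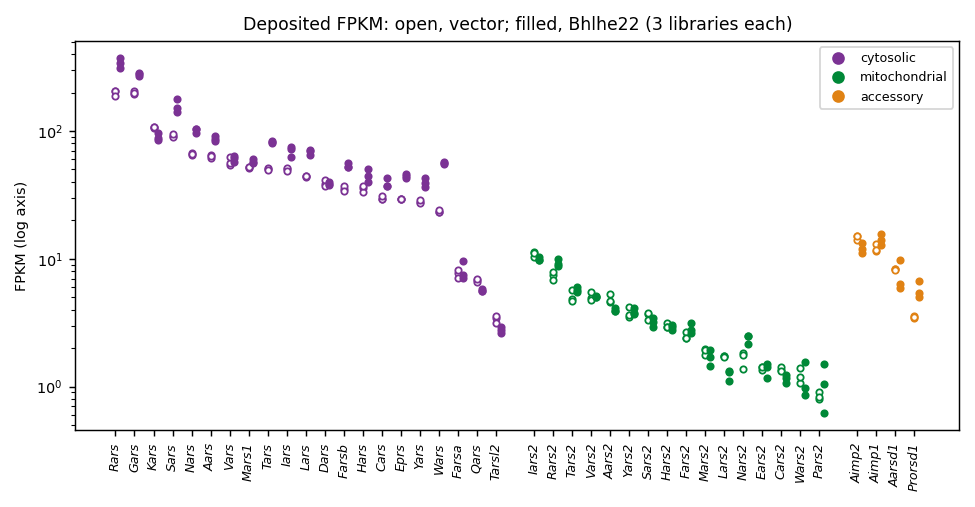
Deposited FPKM (log axis) of 41 of the genes in each library, open for vector and filled for Bhlhe22, ordered by the vector mean within each class. All cytosolic genes except Farsa, Qars and Tarsl2 lie above every mitochondrial gene drawn, and these exceptions lie within the mitochondrial range.

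The order of the levels differed between the groups and with the length used. On the FPKM scale it was as follows. In vector cells Rars had 205, 207 and 188 FPKM and Gars 196.5, 204.5 and 197.8 FPKM, so these genes overlapped. They were followed by Kars at 106 ± 0.833 and Sars at 91.9 ± 2.49 FPKM (SD, n = 3 libraries). In Bhlhe22 cells Rars was at 339 ± 30.5 and Gars at 278 ± 7.63 FPKM, with the lowest Rars library above the highest Gars library. Sars followed at 157 ± 19.8, then Nars at 101 ± 4.56, Kars at 89.8 ± 5.97 and Aars at 86.7 ± 4.12 FPKM, the last 2 differing by less than their spread. At the low end, Pars2 was at 0.843 ± 0.0516 FPKM in vector and 1.05 ± 0.432 FPKM in Bhlhe22 cells, and Wars2 at 1.22 ± 0.172 and 1.13 ± 0.378 FPKM, so these neighbours did not differ beyond their spread in Bhlhe22 cells. In CPM per kilobase of the longest coding transcript, Rars was at 373 and Gars at 305 in vector cells, and Nars came next in both groups. Nars was at 248 in vector cells, beside Kars at 245 and Sars at 166, and at 387 in Bhlhe22 cells, beside Sars at 289 and Kars at 210.0. On that scale Mars2 had the lowest mean over all libraries (1.798), followed by Pars2 (1.991).

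Of the 4 accessory genes, Prorsd1, whose product resembles the proofreading domain of bacterial proline enzymes, was higher. It had 10.4, 10.7 and 10.5 CPM in vector and 20.6, 15.4 and 16.4 CPM in Bhlhe22 libraries (0.72 on the log2 scale, SE 0.13, edgeR adjusted p = 0.00929). The scaffold gene Aimp1 had a log2 fold change of 0.25 (edgeR adjusted p = 0.115) and the scaffold gene Aimp2, which shares 29.4% of its exon length with Eif2ak1 on the other strand, of -0.26 (edgeR adjusted p = 0.0952). Aarsd1, a proofreading protein for mischarged alanine tRNA, had 31.3, 31.2 and 30.3 CPM in vector and 37.3, 22.3 and 23.9 CPM in Bhlhe22 libraries, with Bhlhe22 replicate 1 on the other side of the vector libraries from the other two. Without that library Aarsd1 was lower (-0.43, edgeR adjusted p = 0.00491), as was Aimp2 (-0.34, edgeR adjusted p = 0.0113), and 41.0% of the exon length of Aarsd1 is shared with another gene on its strand.

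Other genes of tRNA charging and translation were called at shares not far from those of all tested genes (10.4% higher and 9.28% lower). Of 13 partners of mitochondrial charging and translation, 2 were higher and 0 lower (median log2 fold change 0.04). They were Gatc and the ribosome recycling factor Mrrf (0.42, edgeR adjusted p = 0.0211). Gatc is a subunit of the enzyme that makes glutaminyl-tRNA in mitochondria in place of a glutaminyl-tRNA synthetase. It was at 21.5 ± 1.27 in vector and 34.1 ± 3.29 CPM in Bhlhe22 cells (SD, n = 3 libraries; 0.66, edgeR adjusted p = 0.00496). Qrsl1 and Gatb, the other subunits of the Gatc enzyme, had log2 fold changes of 0.04 and -0.02 and were chosen after their values were seen. Of 14 cytosolic translation factors and tRNA export genes, 2 were higher and 0 lower (median 0.03), namely Eif2s2, the beta subunit of the initiation factor eIF2 (0.48, edgeR adjusted p = 0.00821), and the tRNA exporter Xpot (0.43, edgeR adjusted p = 0.0254). Each of these pairs of calls became 1 call without vector replicate 1, 2 or 3 or Bhlhe22 replicate 2. Of 7 scaffold and proofreading genes, of which 4 are those above, Prorsd1 was the 1 that was higher. None of 4 selenocysteine genes and none of 13 mRNAs encoded by mitochondrial DNA was called by edgeR, DESeq2 or limma-voom, with 1 and 2 at an unadjusted edgeR p under 0.05. Without Bhlhe22 replicate 1, edgeR called 1 mRNA of mitochondrial DNA higher and 1 lower and 1 selenocysteine gene lower, and without Bhlhe22 replicate 2 it called 1 selenocysteine gene higher.

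Most of the listed genes of amino acid supply rose. Of 18 genes of amino acid synthesis and import, 13 were higher and 0 lower, against 10.4% and 9.28% of all tested genes, with a median log2 fold change of 0.50. The serine synthesis gene Psph went from 108 ± 5.23 to 208 ± 21.8 CPM (SD, n = 3 libraries; log2 fold change 0.94, edgeR adjusted p = 8.88e-04) and Asns, the asparagine synthetase that makes the amino acid and charges no tRNA, from 317 ± 22.1 to 560 ± 46.3 CPM (0.82, edgeR adjusted p = 0.00125). The transporter subunit Slc3a2 (0.72, edgeR adjusted p = 0.00110) and Aldh18a1, of proline synthesis (0.60, edgeR adjusted p = 0.00126), were also higher. The list was set with a rise of stress genes in these data already known, so it is not independent evidence of the direction.

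Of 17 eIF2alpha kinases, their regulators and stress transcription factors, 8 were higher and 1 lower, against 10.4% and 9.28% of all tested genes (median log2 fold change 0.25). This list, too, was set with a rise of stress genes already known, so its share is not independent evidence of the direction. Ppp1r15a, which encodes the phosphatase subunit GADD34 that reverses eIF2alpha phosphorylation, went from 45.5 ± 16.4 to 290 ± 47.7 CPM (SD, n = 3 libraries; 2.67, SE 0.26, edgeR adjusted p = 8.88e-04). The transcription factor genes Atf3 (1.69, edgeR adjusted p = 1.69e-04), Ddit3 (1.29, edgeR adjusted p = 8.85e-04) and Cebpg (0.61, edgeR adjusted p = 9.19e-04) were higher too. Leaving out vector replicate 1, vector replicate 2 or Bhlhe22 replicate 2 gave 5 higher each time. The gene that was lower was Impact, an inhibitor of the amino acid sensing kinase Gcn2 (-0.35, edgeR adjusted p = 0.0391), which was chosen after its value was seen. The number lower was 0 without any vector replicate or without Bhlhe22 replicate 2. None of the 4 eIF2alpha kinase genes passed the test. Atf4, whose product is controlled chiefly at translation, had 490, 1087 and 702 CPM in vector and 637, 1283 and 720 CPM in Bhlhe22 libraries. Its mRNA varied more within each group than between them (0.21, SE 0.36), and it was named after its values were seen. In both groups replicate 2 was the highest and replicate 1 the lowest, and replicate numbers were not used as pairs in this fit. Kinase activity and ATF4 protein were not measured.

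**Figure D4:**
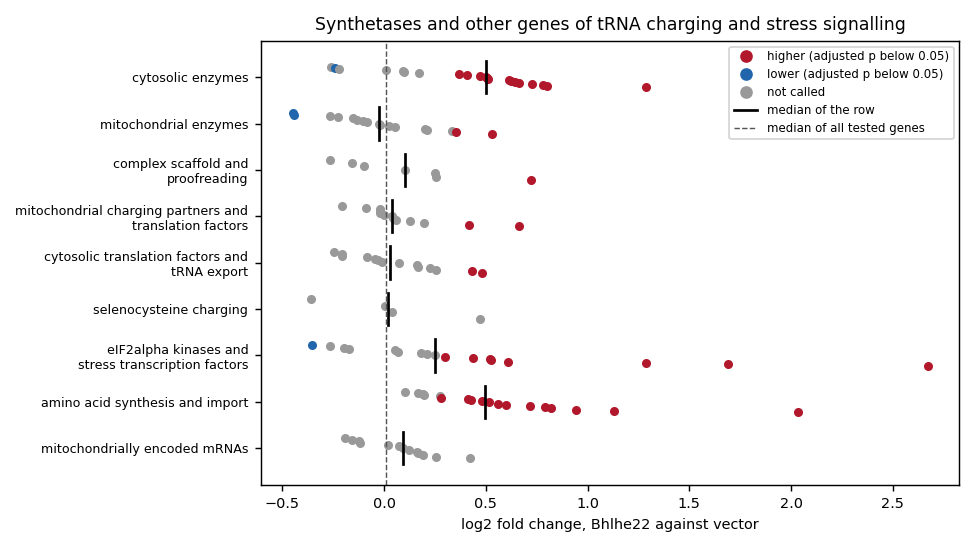
Each point is 1 gene, placed by its log2 fold change of Bhlhe22 against vector; red and blue points passed the test, bars mark the median of each row and the dashed line the median of all tested genes (0.01). The cytosolic enzymes and the genes of amino acid synthesis and import have medians of 0.50, while the mitochondrial enzymes sit at -0.02.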

How the data were processed

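RNA-seq of 6 RM-1 samples (3 vector, 3 Bhlhe22) was used as deposited. Counts per gene are the authors' raw counts. The FPKM values were also made by the authors and deposited with them. The submitters' processing notes name CASAVA 1.8, HISAT2 2.1.0, StringTie 1.3.4b and edgeR with build GRCm38, without roles. The sources used here name neither the annotation release nor whether counting used strand, so genes that share exons are less certain. Per the file headers and values, FPKM divides counts by 1 length per gene. That length was the sum of distinct GENCODE M21 exons within 0.1% in 98.1% of 26317 genes.

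All genes were fitted with edgeR 4.0.16 (R 4.3.3): TMM scaling, low counts removed by filterByExpr at a minimum count of 10, a robust quasi-likelihood fit without covariates, and Benjamini-Hochberg adjustment with a threshold of 0.05. CPM uses TMM-scaled library sizes. SE was derived from the fitted coefficient and its F value. The fit was tested on simulated data. Same-numbered libraries did not deviate together (r from 0.02 to 0.05), so replicate numbers were not used as pairs. Every called gene is named, except that some items are not reported here and are left out of the plots by gene. Values per library were given for up to 12 called genes with the smallest adjusted p in each direction, their counterparts, the 3 highest and 2 lowest by FPKM, Gars, Kars and the gene nearest the threshold on each side. From each other list the 4 called genes with the smallest adjusted p were named. The genes and lists were chosen with earlier results of these data known. The alternatives used DESeq2 1.42.0, limma 3.58.1 (voom, and log2 FPKM with a pseudocount of 1 or 0.1), other scalings and filters, no robust estimation, a replicate block and leaving out each library. Plots were made with Python 3.11.15 and matplotlib 3.10.9.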

Additional observations from a re-analysis of the deposited data

How the results depend on the processing

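Of 714 refits of single genes of the 42, 670 kept direction and side of the threshold, 37 lost a call and 7 gained one, and none turned a call around. The calls of 13 genes, all of them higher, held under every alternative run. Other scalings moved the median of all genes by at most 0.02 on the log2 scale. The number lower among cytosolic genes, 1 as reported, was 2 by DESeq2, 0 with no filter and 0 with the replicate block. The number higher among mitochondrial genes, 2 as reported, was 1 with upper quartile scaling, no filter or log2(FPKM + 0.1), and 0 with the replicate block. Counting by the worded split gave a mitochondrial median log2 fold change of -0.082. With Gars and Kars in neither class, 13 of 19 cytosolic genes were higher and 1 lower, with a median of 0.50. In the list of mitochondrial charging partners 1 gene was lower by DESeq2, with library size only or on either FPKM scale. In that of cytosolic translation factors 1 was lower by DESeq2, with RLE, upper quartile or library size scaling, at 1 CPM in 3 samples or on either FPKM scale. In the stress list 0 were lower with no filter or the replicate block. The block, which rests on replicate numbers that no label ties to a shared culture or day, changed no count of higher genes beyond 1.5 times elsewhere.

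Leaving out each library in turn gave 13 to 18 of the 42 genes higher and 0 to 8 lower, with 12 to 15 cytosolic genes higher, 0 to 3 lower and a cytosolic median of 0.44 to 0.51. Mitochondrial genes had 0 to 2 higher, 0 to 3 lower and a median of -0.048 to 0.012. The 8 lower genes came without Bhlhe22 replicate 1. The same fits gave 0 to 2 lower in the scaffold list, 1 to 2 higher and 0 to 1 lower among mitochondrial partners, 1 to 3 higher and 0 to 2 lower among cytosolic factors, 0 to 1 higher and 0 to 1 lower among selenocysteine genes, 5 to 10 higher and 0 to 1 lower in the stress list, and 0 to 1 higher and 0 to 1 lower among mitochondrially encoded mRNAs. Without 1 library an arm has 2 samples, which can lower the number of calls by itself, and this was not told apart from the library left out. Without Bhlhe22 replicate 1 the calls rose instead, to 18 higher and 8 lower of the 42, against 17 and 3 with all libraries. Among the mitochondrial genes the lowest mean was 119 counts a library, and what depth limits was not tested.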
